A study of Mus musculus with 3 samples.

Results

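The utero-tubular junction is the narrow passage where the oviduct opens into the uterus. Its expression in the absence of mating was measured on 1 single-colour Agilent array, 1 of the 3 arrays of the study. That array held total RNA pooled from the junctions of 10 adult CD-1 females in estrus that had not mated. The remaining arrays held pools from females in estrus mated with a vasectomized male or with a normal male, and they were not used here. CD-1 is an outbred stock, the females carried no stated genetic change and received no stated treatment, and one pool gives a mean over its animals with no spread between them. The 41161 probes of the array that were not controls and had a spot without an outlier mark were ranked by the processed signal, the scanner software's background-corrected brightness in linear units. Of these, 27763 (67.4%) were well above background, the software's call that a spot is clearly brighter than its surroundings. This call is stricter than the software's positive-and-significant flag, which 32718 probes passed.

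The junction joins tissues of several kinds. Its lining is a folded epithelium of ciliated and secretory cells on the oviduct side and of secretory and glandular cells on the uterine side. Beneath it lie a collagen-rich stroma, a thick smooth muscle coat, vessels and an outer mesothelium. Oestrogen is known to drive growth and secretion of the epithelium and to loosen and swell the stroma. The junction is known as a barrier that sperm must pass and as the site where many of them are held back.

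The array had 45018 spots, of which 43379 were not controls, and 68.0% of these were well above background. No spot was saturated. The 153 negative control spots had a median signal of 2.95 and a maximum of 21.1. Probes well above background ran from 13.2 to 357548, with a median of 381 and an interquartile range of 77.5 to 1763. The 189 probes well above background that were printed 10 times had a median SD between spots of 0.0573 on the log2 scale. The software's own error estimate had a median of 10.0% of the signal, and of 12.5% below a signal of 100. Both errors cover the spots of 1 array. There was no replicate array, so no value below has an error between pools and no test was made.

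Each gene takes the signal of its brightest probe. The probes named 27656 genes, and 18535 of them (67.0%) had at least 1 probe well above background. Among the 19507 genes with a RefSeq symbol the count was 14978 (76.8%), and this is the share that the lists below are read against. A signal above 10000 was reached by 1540 genes, a signal from 1000 to 10000 by 6297, and from 100 to 1000 by 6245. A further 4453 lay at or below 100, and 906 genes that were called (4.89%) were no brighter than the brightest negative control spot. The 100 brightest genes carried 21.2% of the summed gene signal and the 1000 brightest 59.6%. How bright a probe is depends on its sequence and on where it lies in the transcript as well as on the amount of transcript. The ranks therefore order probes, and a higher rank does not show that a gene is more abundant than another.

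**Figure D1:**
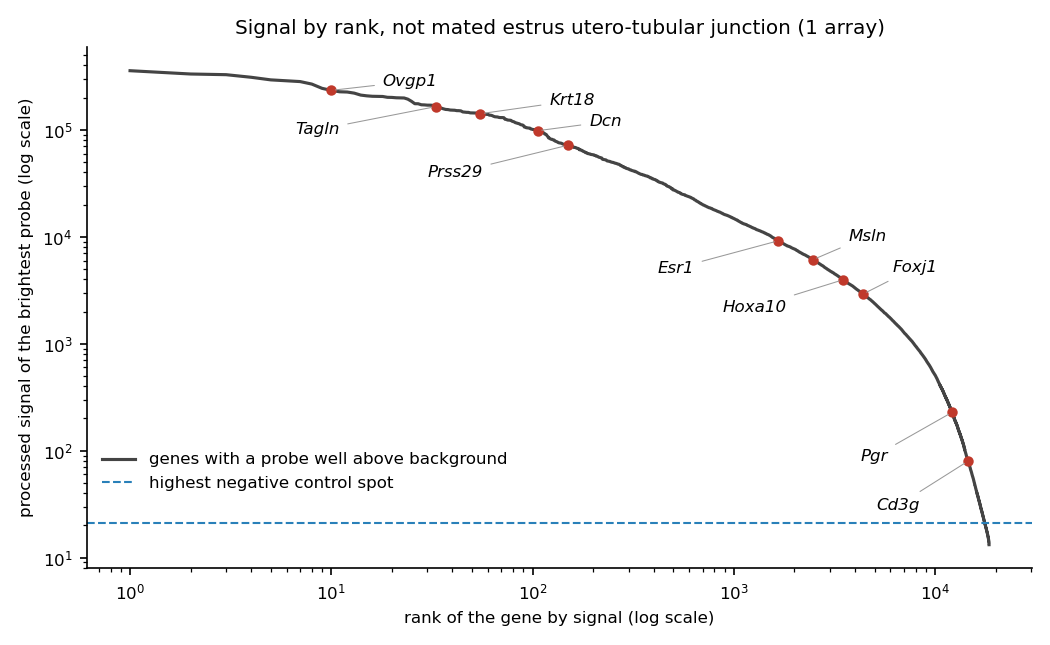
Processed signal of the brightest probe of each gene (log scale) against its rank (log scale) for the called genes of the not mated females, with 11 genes marked as red points. Ovgp1 sits among the leading genes at 234120, Foxj1 lies at 2911, Pgr at 228 and Cd3g at 79.8, and the dashed line is the highest negative control spot at 21.1.

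Secretory products of the tract and the protein-making machinery led the array. Of the 40 brightest genes with a RefSeq symbol, whose signals ran from 152556 to 357548, 22 encoded ribosomal proteins and 18 did not. Ovgp1, the oviductal glycoprotein secreted by oviduct epithelium and found around the egg coat, gave 234120 ± 23412 (software error) at rank 10. That probe lay at chr3:105805359-105805418 in the array design's build, mm7, and the second Ovgp1 probe gave 14827. Wfdc2, a secreted WAP-domain protein of genital tract epithelium, gave 225859 ± 22586 at rank 12 (chr2:164309089-164309148, mm7). Prap1, a proline-rich acidic protein known from uterine epithelium, gave 211467 ± 21147 at rank 14. The complement component C3, a textbook oestrogen-induced product of the uterus, gave 201586, and the SD over its 10 spots was 0.052 on the log2 scale. These secreted products stood with the ribosomal genes at the top of a signal range that fell by over 4 orders of magnitude.

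The other non-ribosomal genes of the 40 were of several kinds. Myl6, a myosin light chain of smooth muscle and other cells, gave 208091 and 199952 from its pair of probes. Tagln, the smooth muscle actin-binding protein transgelin, gave 164965. Fxyd4, a regulator of the sodium pump, gave 175614, and Tmsb4x, which binds actin monomers, 153217. The glutathione transferases Gstm1 and Gsto1, which conjugate and reduce electrophiles, gave 157430 and 152556. Fth1, the heavy chain of the iron store ferritin, gave 160353. Fau, which is made as a fusion of a ubiquitin-like protein with a ribosomal protein, gave 244426, and Rack1, a ribosome-bound scaffold, gave 171186. Grn, the secreted growth factor precursor progranulin, gave 282861.

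Some of the very brightest probes stood alone within their gene. Pigt, a subunit of the enzyme that attaches lipid anchors to proteins, had the highest signal on the array at 357548, while its other probe gave 205. Both Pigt probes were placed on chromosome 17 by the array design, whereas the RefSeq gene lies on chromosome 2. Ptprz1, a receptor phosphatase known from glia, gave 310264 from 1 probe, 135 from another, and its remaining pair was not well above background (5.79 and 4.24). Lars2, the mitochondrial leucyl-tRNA synthetase, gave 332972 from its single probe. The values of Pigt and Ptprz1 were therefore not shared by their other probes, and for Lars2 no second probe was there to compare. Among the 40 genes, 21 had several probes, and in 9 of these the probes lay over 10-fold apart.

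The 22 ribosomal protein genes among the 40 were led by Rps18 (328180), Rps14 (293489), Rpl7a (287559), Rps23 (268039), Rpl37a (227072) and Rpl41 (220549). Rplp2, Rps16, Rps27, Rps2, Rpl5, Rps20, Rps28, Rplp1, Rps3, Rps12, Rpl12, Rpl23a, Rps13 and Rplp0 followed between 206085 and 154739. In the wider list of ribosomal proteins and translation factors, 33 of 33 genes were called, all 33 above 1000. Rps6, the ribosomal protein phosphorylated in response to growth signals, gave 53002, and the elongation factor Eef1a1 gave 70856. Across every gene named as a cytosolic ribosomal protein, 83 of 83 were called with a median signal of 104678. Mitochondrial ribosomal proteins (78 of 78, median 3781), proteasome subunits (39 of 39, median 7979) and subunits of mitochondrial complex I (36 of 36, median 15549) were likewise called throughout. Rps2, Rps18 and many other ribosomal protein genes have processed copies elsewhere in the genome, and their probes may not tell these apart.

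Epithelial genes were called throughout, 29 of 29 in a general epithelial list, 24 of them above 1000. Its median gene stood at percentile 87.1 of all gene names, where the median gene with a RefSeq symbol stood at 61.4 and the genes not well above background share 16.5. Krt18 and Krt8, the keratin pair of simple epithelium, gave 141585 and 94291, and the second Krt8 probe gave 83648. Krt19 and Krt7, also keratins of simple epithelium, gave 72965 and 47765. The tight junction protein Cldn3 gave 40543. Epcam and Cdh1, the adhesion molecules that define epithelium, gave 5977 and 3559. The simple-epithelium keratins thus lay in the top 1% of genes, while the defining adhesion molecules lay lower and were also clearly above background.

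Genes of motile cilia were also called throughout, at lower signals. Of 29 measured genes of the ciliated epithelium list, 29 were called, 12 above 1000, with a median at percentile 69.7. Foxj1, the transcription factor that switches on motile cilia, gave 2911. Dnah5, a heavy chain of the outer dynein arm, gave 1121, and Ccdc39, a ruler of the repeat along the axoneme, 190. The other Dnah5 probes gave 26.7 and 20.7, and the second Ccdc39 probe was not well above background (2.99). The brightest were Dynlrb2, a dynein light chain (10491), Cfap126, a ciliary protein (8856), Tppp3, a tubulin-binding protein (6489), Tekt1, a filament of the ciliary microtubules (4478) and Drc1, of the regulatory complex between microtubule doublets (3539). The regulators of multiciliated cell formation were dimmer, with Ccno at 470 and Deup1, a builder of the many basal bodies, at 32.6. The dynein intermediate chain gene listed on the array as Dnaic2 was the dimmest at 20.8, under the brightest negative control spot.

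The regulatory factor X family of transcription factors binds the X-box, a 14-base element known from cilia genes. A search of both strands of the RefSeq promoters of build GRCm38.p6, 250 bases before to 50 after each start, found an X-box in 330 of 15456 measured genes with a promoter (2.14%). In the ciliated list it was found in 5 of 25 genes (20.0%): Cfap44, Deup1, Dnali1, Rfx2 and Tekt1. The share was 2.12% among genes well above background and 2.18% among the rest. A match in a promoter is a string of letters and not shown to be a site that is used. The stretches below are the 100 bases before the start of Cfap44 (signal 948, chr16:44394699-44394798, plus strand), Deup1 (32.6, chr9:15627847-15627946, minus strand) and Tekt1 (4478, chr11:72361883-72361982, minus strand). They are shown because they carry the element of this gene group, with the X-box in capitals, 5′ to 3′ on the gene's strand.
Cfap44: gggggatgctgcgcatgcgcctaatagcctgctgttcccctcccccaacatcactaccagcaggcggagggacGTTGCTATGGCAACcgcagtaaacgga
Deup1: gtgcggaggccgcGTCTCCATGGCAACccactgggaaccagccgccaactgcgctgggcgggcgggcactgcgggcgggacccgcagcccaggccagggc
Tekt1: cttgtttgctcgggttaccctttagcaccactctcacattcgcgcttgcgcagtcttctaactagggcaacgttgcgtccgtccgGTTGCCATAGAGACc
The element lies at bases -27 to -14 in Cfap44, -87 to -74 in Deup1 and -15 to -2 in Tekt1, counted from the start. The signals of these 3 genes lay in different parts of the ciliated list, which ran from 20.8 to 10491.

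Genes of both organs that meet at the junction were present. In the oviduct epithelium list 14 of 15 genes were called, 8 above 1000, with a median at percentile 76.5. After Ovgp1 and Wfdc2 came Sox17, a transcription factor of endoderm and of the uterine and oviduct epithelium (14393, with its lowest probe at 40.4). Next were Msx1, a homeobox factor of the tract (6034, with its other probe at 341) and the laminin receptor subunit Itga6 (4549, lowest probe 144). Pax8 and Pax2, the paired-box factors of the Mullerian duct and of secretory oviduct cells, gave 734 and 42.1. Crisp4, a secreted protein better known from the epididymis, was not well above background.

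In the uterine epithelium and gland list 16 of 18 genes were called, 12 above 1000, with a median at percentile 80.5. Prss29 and Prss28, the implantation serine proteases known from uterine glands, gave 71864 and 48761. Ltf, the iron-binding oestrogen-induced secretion lactoferrin, gave 84139 from 1 probe and 60016 from the other. Sprr2a1, a small proline-rich protein of epithelial surfaces, gave 86760, but its second probe gave 30.8, and the Sprr2 genes are near-identical copies that probes may not tell apart. Calb1, the calcium-binding protein calbindin, gave 54741. Foxa2, the transcription factor that defines uterine glands, gave 2588. Ihh, the hedgehog ligand by which uterine epithelium signals to stroma, gave 1099. The chloride channel regulator Clca3b and transthyretin, Ttr, were not well above background. Gland, surface and oviduct products were thus all found in this dissection.

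**Figure D2:**
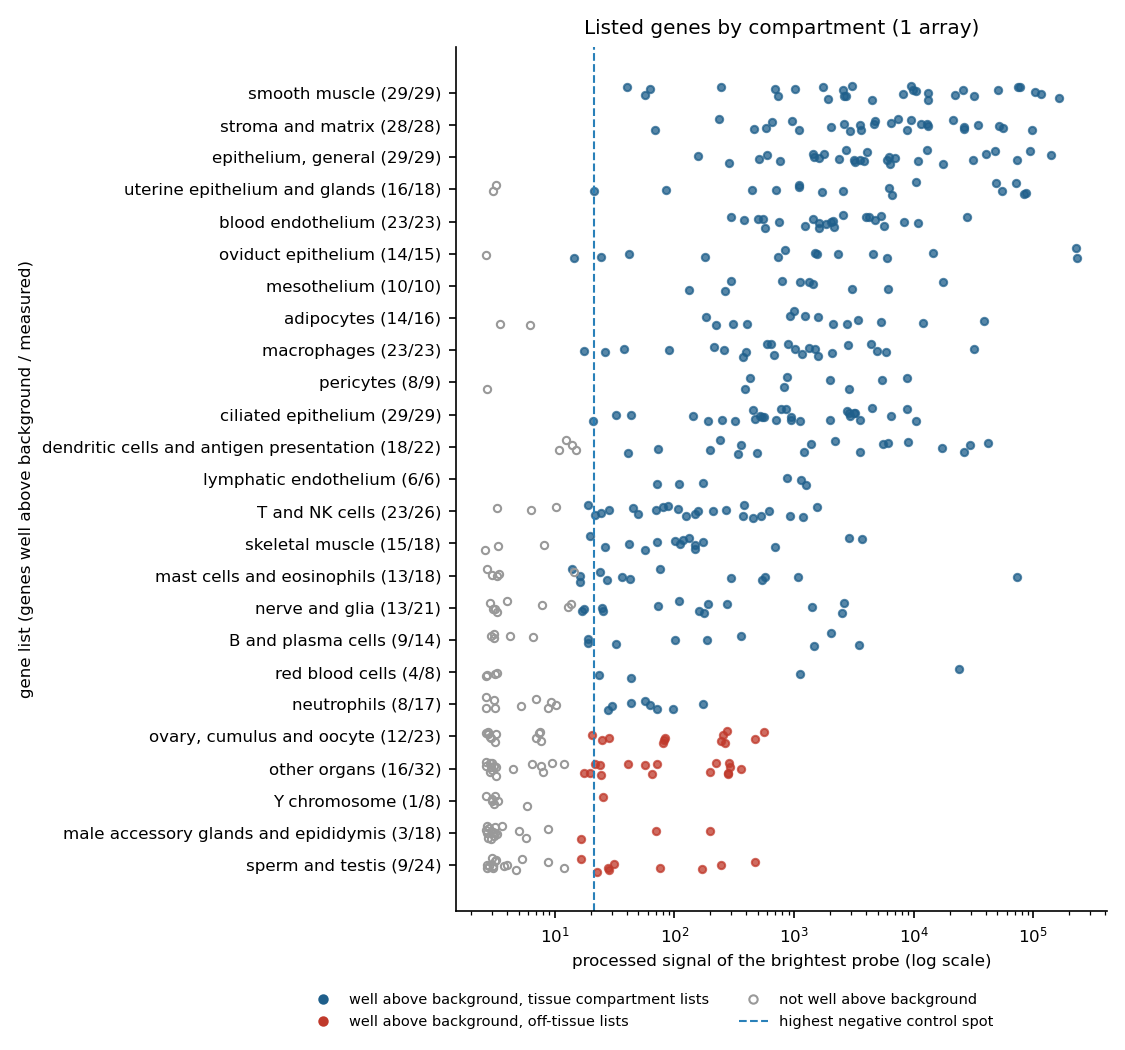
Processed signal (log scale) of the brightest probe of every measured gene in 20 tissue compartment lists (blue) and 5 off-tissue lists (red), with open grey circles for genes not well above background and the dashed line at the highest negative control spot, 21.1. Smooth muscle, stroma and epithelium lists reach beyond 10000 in many genes, while no gene of the off-tissue lists exceeds 565.

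Stromal and smooth muscle genes were called throughout. Of 28 stromal and matrix genes 28 were called, 22 above 1000, with a median at percentile 90.3. With the median probe of each gene in place of the brightest it was 80.5, below the 88.4 of general epithelium and the 82.8 of uterine epithelium. Dcn, the collagen-binding proteoglycan decorin, gave 98197. The fibrillar collagen genes Col1a2, Col3a1 and Col1a1 gave 55561, 52193 and 34222. The matrix-cell linker Sparc gave 26314. Pdgfra, the growth factor receptor that marks stromal fibroblasts, gave 2021. Every one of Dcn, Col1a2, Col3a1, Col1a1 and Pdgfra also had a probe below 150, so the bright values rest on 1 or more favourable probes of each gene.

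All 29 smooth muscle genes were called, 23 above 1000, with a median at percentile 93.3, or 85.6 with the median probe of each gene. The first value is the highest of the 20 compartment lists and the second lies below that of general epithelium. Tagln led at 164965. Myl9, the regulatory light chain whose phosphorylation starts contraction, gave 115338. Acta2, smooth muscle actin, gave 104126 (SD over 10 spots 0.045 on the log2 scale), and its 4 other probes gave 15418, 3601, 188 and a value not well above background (11.6). Flna, which crosslinks actin, gave 76965, and Cnn1, the actin-binding protein calponin, 74974. The other Flna probes gave 8913, 185 and a value not well above background (2.75). Myh11, the smooth muscle myosin heavy chain and the marker most particular to that cell type, gave 22242. Myocd, the coactivator that drives this gene set, gave 738. The contractile proteins were therefore among the brightest genes and their coactivator in the middle range.

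Serum response factor, the partner of Myocd, binds the CArG box. It was found in the promoter window of 249 of 15456 genes (1.61%) and of 2 of 24 smooth muscle genes with a promoter (8.33%), Ldb3 and Myl9. Known smooth muscle elements can lie outside this window, which was the only one searched. The stretch of Myl9 is shown as the brighter of the pair, from base -200 to -101 before the start (chr2:156775264-156775363, plus strand, GRCm38.p6), with the CArG box in capitals.
Myl9: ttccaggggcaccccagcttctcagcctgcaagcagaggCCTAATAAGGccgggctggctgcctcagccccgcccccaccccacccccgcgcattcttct
Ldb3, a linker of the contractile apparatus, gave 39.9, so both the genes with this element were called, at signals far apart.

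Vessels and the outer layer were represented at intermediate signals. All 23 blood endothelium genes were called, 17 above 1000 (median percentile 80.1). The surface sialomucin Cd34, which some stromal cells also carry, gave 28172. Ramp2, the adrenomedullin receptor partner, gave 10831, Egfl7, a secreted endothelial factor, 8355, Cldn5, the endothelial claudin, 5626 and Emcn, endomucin, 5312. The defining markers gave 2019 for Cdh5, 569 for Tie1 and 381 for Pecam1. Of 9 measured pericyte genes 8 were called. They were led by Kcnj8, a potassium channel subunit (8773), the adhesion molecule Mcam (5444), Rgs5, a G-protein regulator (2889), Notch3 (2018) and Cspg4 (871), while Abcc9, the channel's partner, gave 425 and Cox4i2 was not well above background.

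Lymphatic endothelium had 6 of 6 genes called, or 3 when every probe of a gene had to be called. Its median percentile, 61.8, was close to that of all genes with a RefSeq symbol. Lyve1, the hyaluronan receptor, gave 1256, Mmrn1 1137, Reln 879, Pdpn 173, Prox1, the transcription factor that defines this cell type, 109, and Flt4, the receptor for its growth factor, 71.4. Mesothelium had 10 of 10 called (median percentile 74.2). Rspo1, a secreted Wnt amplifier, gave 17756, the surface protein Msln 6106, the transcription factor Wt1 3060, Nkain4 1449 and Upk3b 1345. Wt1 is also made in uterine stroma, and Rspo1 was by far the brightest of this list.

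In a bulk sample, a low signal can come from few cells of a type or from little RNA per cell, and these cannot be told apart. With that limit, macrophage genes were called throughout, 23 of 23, with 11 above 1000 (median percentile 70.3). Lyz2, the lysozyme of myeloid cells, gave 31961, with its second probe at 306. The cathepsin Ctss gave 5821, the transcription factor Maf 4923, the lysosomal protease Lgmn 4362 and Trem2, a lipid-sensing receptor, 2803. The defining receptors Csf1r and Adgre1 (F4/80) gave 889 and 1339, and Cd68 592. Antigen-presentation genes were called in 18 of 22 (median percentile 68.7). H2-K1, H2-D1 and B2m, the parts of class I molecules that most cells make, gave 41585, 29435 and 26398. Their loading partner Tapbp gave 17112. The class II gene H2-Ab1 gave 8912 and the invariant chain Cd74 gave 6147. The dendritic cell markers Itgax and Flt3 gave 242 and no signal well above background.

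Neutrophil genes gave low signals. In this list 8 of 17 were called, against 76.8% of genes, and 14 of 17 with the software's less strict positive-and-significant flag, so the low share depends on the call. The list median was the percentile shared by genes not well above background. The brightest was Mpo, the granule peroxidase, at 175. S100a9, a subunit of the abundant neutrophil protein calprotectin, gave 97.9, and its partner S100a8 was not well above background. Mmp9 gave 71, Ctsg 62.8 and Mmp8 56.4, all enzymes of neutrophil granules. No gene of this list exceeded 1000 in the females that had not mated.

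T and NK cell genes were called in 23 of 26, but low, with a median at percentile 50.1. The T cell receptor parts Cd3g and Cd3e gave 79.8 and 24.5, and Ncr1, an NK cell receptor, 70.1. Cd8b1 gave 1190 from a probe that the array design places on chromosome 5, while its probe on the gene's own chromosome, 6, was not well above background (8.19). Without probes placed on another chromosome the list had 22 genes called. High among the others were the chemokine Ccl5 (929), the receptor subunit Il2rb (615) and the granule protein Nkg7 (533). Cd4, Klrk1 and Foxp3 were not well above background. B and plasma cell genes were called in 9 of 14 (median percentile 37.5). Those tied to secretion led, with Derl3 at 3465, the joining chain Jchain at 2034, Ighm at 1460 and Mzb1 at 189, together with Cd79b at 359. The B cell marker Ms4a1 gave 18.8. Cd3e and Ms4a1, which define T and B cells, thus sat near the highest negative control spot.

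Mast cell and eosinophil genes were called in 13 of 18 (median percentile 37.8), and 1 gene stood apart. Hdc, the enzyme that makes histamine, gave 72873, in the top 1% of genes. The mast cell proteases Cma1, Mcpt4 and Cpa3 gave 1074, 544 and 295, the receptor Kit gave 574, and Epx, the eosinophil peroxidase, was not well above background. The median of the called members was 42.5. Hdc rests on 1 probe, and which cells made it was not tested.

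Other cells that a dissection can carry were detected in part. Of 8 red blood cell genes 4 were called. Hba-a1, an alpha globin, gave 23859 and 23250 from its pair of probes, Alas2, the haem enzyme of red cells, 1114, Slc4a1 43.7 and Klf1 23.4. Fat cell genes were called in 14 of 16 (median percentile 73.0). Dgat2, a triglyceride-making enzyme that is not restricted to fat, gave 38615, the complement protease Cfd 11948, the fatty-acid carrier Fabp4 5375, lipoprotein lipase, Lpl, 3403 and Cidea 2760. The hormone Adipoq gave 924, the droplet coat protein Plin1 182, and Lep was not well above background. Markers of fat cells thus lay in several parts of the signal range.

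Nerve and glia genes were called in 13 of 21 (median percentile 37.6). The neurotrophin receptor Ngfr gave 2595, the myelin protein Mbp 2539, S100b 1418, Uchl1 274, the neuronal tubulin Tubb3 160 and the Schwann cell factor Sox10 25. The Mbp value came from 1 spot. Another Mbp probe, printed 10 times, gave 55.6, and the remaining one was not well above background (3.56). The second Ngfr probe gave 36.0. Skeletal muscle genes were called in 15 of 18 (median percentile 49.5). The troponin Tnni2 gave 3734 and the actin Acta1 2888, followed by Tnnt1 at 698, Tnnt3 at 174 and Casq1 at 149. Ckm, the muscle creatine kinase, gave 56.4 and the fast myosin Myh4 was not well above background. Apart from Tnni2 and Acta1, the skeletal muscle list had no gene above 1000.

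Genes listed as belonging outside the junction were measured in the same way. Their listing does not show that the junction makes none of them, and this was not tested. Across 5 lists of such genes, 41 of 105 were called, against 76.8% of all genes with a RefSeq symbol, and 0 exceeded a signal of 1000. By contrast 175 of 379 compartment genes (46.2%) did, as did 37.4% of all genes with a RefSeq symbol. The limit does not hold for every tissue-restricted gene, since the olfactory receptor gene Olfr571 gave 1050 and the keratin-associated protein gene Krtap4-6 gave 49527, both named after their values were seen. The lists too were chosen with earlier results of these data known, so off-tissue against compartment lists is not an independent comparison. Ovary, cumulus and oocyte genes were called in 12 of 23, at most 565. These were Akr1c18, which inactivates progesterone (565), Inhba (470), Has2 (275), Star (264), Tnfaip6 (255), Cyp17a1 (246), Inha (83.6), Gdf9 (81.2), Nr5a1 (80.5), Foxl2 (28.5), Hsd3b1 (24.6) and Zp3 (20.3). Cyp19a1 and Fshr, the aromatase and the follicle-stimulating hormone receptor of granulosa cells, were not well above background.

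Sperm and testis genes were called in 9 of 24, and in 15 with the positive-and-significant flag, in females that had not mated. The highest were Acrbp, an acrosome protein, at 476, the protamine Prm1 at 244 and the kinase Tssk6 at 170. Ldhc gave 75.4, Spem1 31.3, Tnp1 28.4, Tssk1 28, Acr 22.5 and Tnp2 16.4, and Prm2 was not well above background. Male accessory gland and epididymis genes were called in 3 of 18, Tgm4 at 200, Sbp at 69.8 and Lcn9 at 16.4. That count was 7 with the same flag and 1 when every probe had to be called. The seminal vesicle genes Svs2 and Svs4 and the prostate gene Pbsn were not well above background. Signals of up to 476 were therefore given by probes for male germ cell and gland genes in a sample that should hold neither. Whether these are low transcripts of the junction or cross-hybridisation was not tested.

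Genes of other organs were called in 16 of 32. The cardiac hormone Nppa gave 362, the intestinal lactase Lct 294, the cardiac troponin Tnni3 286, the fibrinogen chain Fgg 281, the lung surfactant Sftpc 279, the liver oxidase Cyp2e1 221 and Pomc 198. Ahsg gave 71.8, Myh6 65.3, Ins2 57.1, Fga 41.1, Gfap 24.1, Umod 23.8, Alpi 21.8, Fgb 19.7 and Fabp2 17.4. Albumin, Alb, was not well above background. On the Y chromosome 1 of 8 genes was called (2 with the same flag), Zfy1 at 25.3, while Ddx3y, Kdm5d and Eif2s3y were not well above background. Xist, the RNA of the inactive X chromosome in females, gave 14738, with all 4 of its probes well above background. Both findings match a female sample.

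Hox genes, which set position along the genital tract, were called in 29 of 38 (76.3%), near the 76.8% of all genes with a RefSeq symbol. The list median, percentile 50.8, lay below the 61.4 of those genes. In paralog groups 9 to 11, the groups known to pattern oviduct and uterus, 9 of 9 were called. Hoxa11 gave 5470 and Hoxa10 3967, both known from uterus, and Hoxa9, known from oviduct, 789. Hoxd10 gave 936, Hoxd9 842, Hoxc9 667, Hoxb9 94.6, Hoxc10 56.8 and Hoxd11 50.3. The last 3 were thus under 100, and the second Hoxc10 probe was not well above background (8.81). In groups 12 and 13, the second of which is known from cervix and vagina, 0 of 6 were called, namely Hoxa13, Hoxb13, Hoxc12, Hoxc13, Hoxd12 and Hoxd13. In cluster D, where both were measured, Hoxd11 was called and Hoxd12 was not.

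The brightest Hox probes belonged to more anterior groups. In groups 5 to 8, 10 of 11 genes were called. Hoxb6 gave 16868, with its second probe at 255, and Hoxb7 10453. Hoxa7 gave 2121, Hoxb5 2001, Hoxc6 681, Hoxb8 305, Hoxd8 247, Hoxa5 169, Hoxa6 136 and Hoxc5 14.9, and Hoxc8 was not well above background. In groups 1 to 4, 10 of 12 were called. Hoxb2 gave 4066 and Hoxd4 2126, followed by Hoxb3 at 712, Hoxb4 at 324, Hoxa3 at 114, Hoxa2 at 74.7, Hoxd3 at 68.9, Hoxc4 at 37.9 and Hoxa4 at 30.9. Hoxb1 and Hoxd1 were not well above background.

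**Figure D3:**
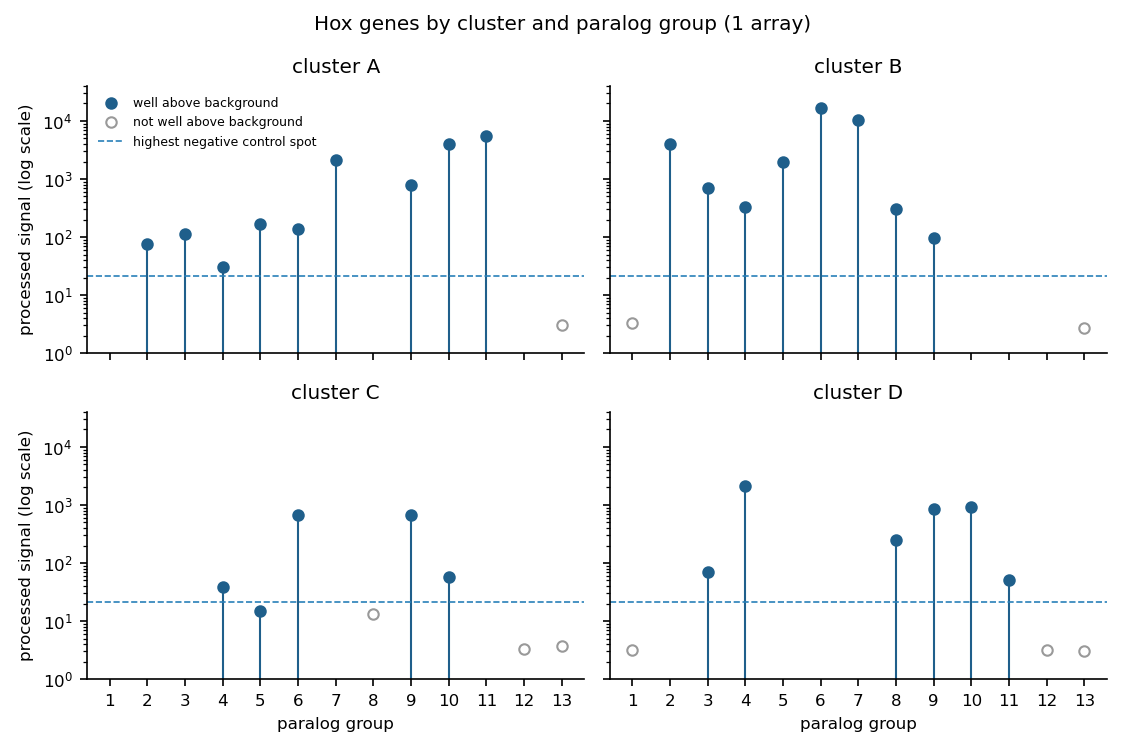
Processed signal (log scale) of the Hox genes reported here by paralog group in clusters A, B, C and D in the not mated females, with filled points for genes well above background, open circles for the others and the dashed line at the highest negative control spot. Hoxa9, Hoxa10 and Hoxa11 stand at 789, 3967 and 5470, and every measured gene of groups 12 and 13 is an open circle.

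The main receptors for oestrogen and progesterone were both called. Esr1, the oestrogen receptor alpha, gave 9190 (SD over 10 spots 0.030 on the log2 scale), with its other probe at 219. Esr2, the beta form, was not well above background. Pgr, the progesterone receptor, gave 228 and 16.3. The glucocorticoid receptor Nr3c1 gave 1351, with its other probes at 138, 41.2 and 22.3. The mineralocorticoid receptor Nr3c2 was not well above background. The membrane oestrogen receptor Gper1 gave 520. Pgrmc1 and Pgrmc2, haem-binding membrane proteins named for progesterone, gave 12258 and 6123, and the receptor chaperones Fkbp4 and Fkbp5 8155 and 374. The cofactors Ncoa1, Nrip1, Ncoa3 and Ncoa2 gave 3522, 2862, 1017 and 267, and Greb1, an oestrogen-induced cofactor, 2423. In all, 14 of 16 genes of this list were called, with a median at percentile 73.6.

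Genes known to respond to oestrogen in the uterus were called in 20 of 20, with a median at percentile 87.2. After C3 and Ltf the brightest were the creatine kinase Ckb (29859), the transcription factor Klf4 (23736) and the redox regulator Txnip (18765). Lcn2, which binds bacterial siderophores, gave 812. Genes known to respond to progesterone were called in 17 of 18, with a median at percentile 75.2. Cyp26a1, which breaks down retinoic acid, gave 12172, the feedback inhibitor Errfi1 11651, Gata2 8254, the endocytic receptor Lrp2 7023 and Nr2f2 6921. Areg, a growth factor of this list, was not well above background. The full oestrogen response element, a palindrome written GGTCANNNTGACC, was found in the promoter window of 9 of 15456 genes (0.0582%) and of 0 of 17 oestrogen-responsive genes with a promoter.

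**Figure D4:**
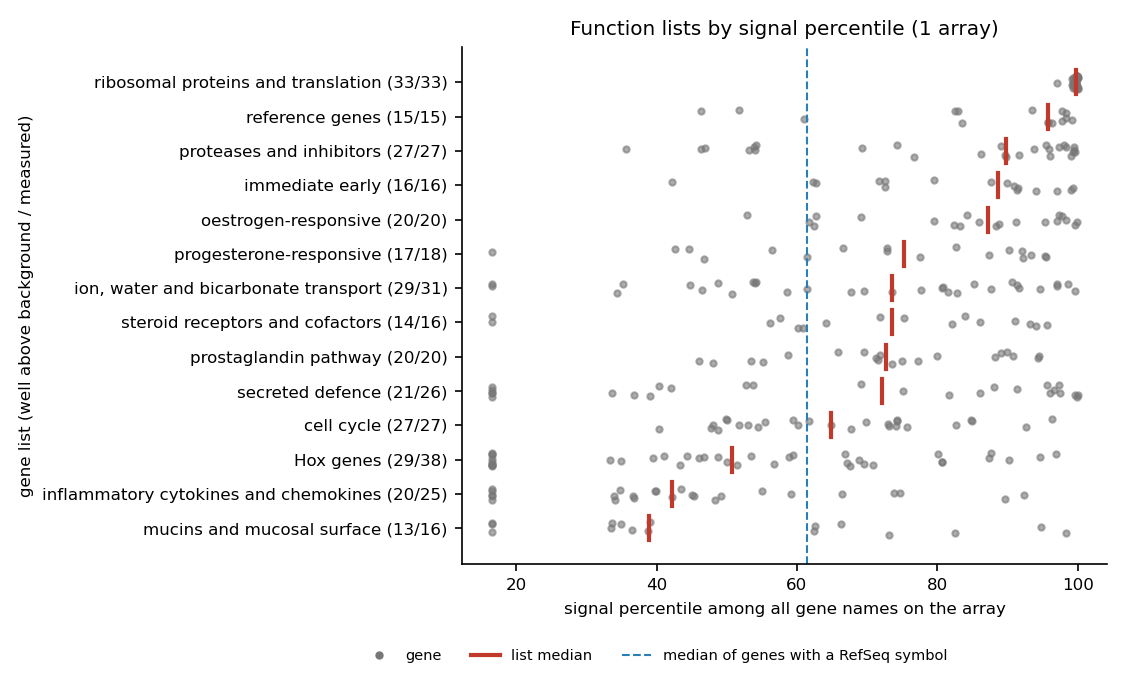
Signal percentile of every measured gene (grey points) and the list median (red bar) in 14 function lists in the not mated females, with the dashed line at the median of genes with a RefSeq symbol, 61.4. Genes not well above background share percentile 16.5. List medians run from 39.0 for mucins to 99.8 for ribosomal proteins and translation.

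Genes that set the fluid of the lumen were mostly detected, 29 of 31, with a median at percentile 73.6. The water channels Aqp8, Aqp1 and Aqp5 gave 36227, 17255 and 10475, and the carbonic anhydrase Car2 17629. Cftr, the chloride and bicarbonate channel of secretory epithelium, gave 721 from 1 of its probes, and the bicarbonate exchanger Slc26a6 126. The exchanger Slc9a3 and the channel Aqp9 were not well above background. These 3 water channels were in the top 10% of genes, and Cftr and Slc26a6 were not.

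Mucins were less evident. Of 16 genes of the mucosal surface 13 were called, with a median at percentile 39.0. This was the lowest of the 14 function lists, but when only called genes were ranked the mucins stood at 44.1 and the cytokines (18.2) and Hox genes (39.6) lower. Cd24a, a small mucin-like surface protein, gave 31179, and Agr2, which helps mucins fold, 10710. The membrane mucins Muc20, Muc16, Muc4 and Muc1 gave 2523, 1121, 637 and 442. The gel-forming mucins Muc6, Muc2 and Muc5b were at 28.5, 21.7 and 15, near the negative controls. Among the mucins measured, those anchored in membranes gave the higher signals.

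Secreted defence genes were called in 21 of 26, with a median at percentile 72.1, and were divided. Wfdc2, C3, Ltf, the WAP-domain protein Wfdc18 (20225) and Clu, an extracellular chaperone (19465), led. Slpi, a protease inhibitor of mucosal fluids, gave 3512, and Pigr, which carries antibodies across epithelium, 1326. The antimicrobial peptide gene Camp, the lectin Reg3g, Bpifa1, Nos2 and Duox2 were not well above background. Probes of the list thus ran from the top of the array to background, and the second C3 probe gave 327.

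All 27 measured proteases and inhibitors were called, 19 above 1000, with a median at percentile 89.8. The lysosomal cathepsins Ctsd, Ctsb and Ctsl gave 82060, 78777 and 68561, and Prss29 and Prss28, described above, were also among the 5 highest. Timp3, an inhibitor of matrix proteases, gave 13166. Prostaglandin genes were called in 20 of 20 (median percentile 72.7). Ptgs1, the constitutive cyclooxygenase, gave 4354, while the inducible Ptgs2 gave 88.2 and the synthase Ptges 201. Akr1b3, an aldo-keto reductase that can make prostaglandin F, gave 10152, Cbr1 9924, the uptake carrier Slco2a1 5874, Ptges3 5282 and the phospholipase Pla2g4a 4757. Ptgs2 and Ptges, the inducible pair, were both called at low signals.

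Cell cycle genes were called in 27 of 27, with a median at percentile 64.9. Mki67, a marker of dividing cells, gave 1228, Top2a 140 and Ccnb1, the mitotic cyclin, 96.2. The DNA replication genes Mcm6, Pcna, Tyms and Mcm3 gave 14940, 7495, 3108 and 3085, and the mitotic activator Cdc20 2529. Replication genes held 4 of the 5 highest signals of this list.

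Immediate early genes, which rise within minutes of a stimulus or of dissection, were called in 16 of 16, with a median at percentile 88.7. Klf2 gave 65045, Jund 49772, Junb 17105, Klf6 9356 and Nr4a1 6486. Fos, Egr1 and Atf3 gave 451, 1913 and 1083, and Fosb was the dimmest at 43.3. How long the dissection took is not stated in the sources used here, and its part in these signals was not tested.

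Inflammatory cytokines and chemokines were called in 20 of 25, with a median at percentile 42.2. Il1b, Cxcl1 and Tnf gave 60.7, 22.5 and 16.5. The 5 highest members were the tethered chemokine Cx3cl1 (7145), the stromal chemokine Cxcl12 (5128), the colony-stimulating factors Csf3 (1276) and Csf1 (1200), and the alarmin Il33 (642). The second Cx3cl1 probe gave 25.3. Il1a, Cxcl2, Csf2, Il17a and Il10 were not well above background. Without mating, Il1b, Cxcl1 and Tnf thus gave signals under 100, while Csf3, also inducible, gave 1276. Tnf was no brighter than the brightest negative control spot.

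Common reference genes were called in 15 of 15. Gapdh gave 23566 from a probe placed on chromosome 1 and 14412 from the probe on the gene's own chromosome, 6. Actb gave 14350 from a probe placed on chromosome X and 1176 from the probe on its own chromosome, 5. Ppia gave 8447, and others were Tubb5 (31918), Ldha (29621) and Pgk1 (23147). The general transcription factor Tbp gave 141 and the polymerase subunit Polr2a 71.4. Gene families with known tissue restriction lay at the other end. Of 907 olfactory receptor genes 104 were called (11.5%), with a median signal of 24.1 among those called, of 123 vomeronasal receptor genes 8 (6.50%), and of 13 bitter taste receptor genes 0. Of 41 keratin-associated protein genes 11 were called (26.8%), with a median of 95.8. Among 28 beta-defensin genes 5 were called (17.9%). The share called was 78.8% for protein-coding genes and 38.9% for long noncoding RNA genes, 877 of which were measured with probes made for an older annotation.

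Promoter composition differed with the calls. In the promoters of genes not well above background, the median ratio of observed to expected CpG was 0.23, and 17.0% of these 3580 genes had a ratio over 0.6. For called genes, split into 4 equal classes by signal, the median was 0.54 in the lowest class, then 0.76, 0.80 and 0.81. The share over 0.6 went from 45.7% in the lowest class to 79.7% in the highest. The TATA box, searched as TATAAA on both strands, was found in 24.1% of promoters of genes not well above background and in 10.3% of those well above. Among the 40 leading genes, 6 of the 32 with a promoter (18.8%) held it. Gstm1 was the only one of these 6 with the box at the usual distance, from -30 to -25. Its 100 bases before the start (chr3:108017819-108017918, minus strand, GRCm38.p6) are shown for that reason, with the box in capitals.
Gstm1: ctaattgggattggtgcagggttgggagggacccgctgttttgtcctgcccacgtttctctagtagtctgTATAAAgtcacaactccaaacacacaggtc
These are descriptions across genes, which are not independent of each other.

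The spread between probes of a gene bounds how far a single signal can be read. Of 8683 genes with several probes, 5309 had all of them called, 808 none and 2566 some. In the 6364 genes with at least 2 called probes, the brightest and dimmest lay a median of 7.16-fold apart (interquartile range 2.54 to 24.8). They were within 2-fold in 19.4% of genes and over 10-fold apart in 42.8%. The widest were Rps18 (56.3 to 328180), Lrrc58 (31.0 to 106076), Sod1 (25.2 to 84061), Sprr2a1 (30.8 to 86760) and Eef1d (21.9 to 58906). This spread was far larger than the spread between replicate spots of 1 probe.

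Position along the gene went with part of it. The labelling was primed with oligo-dT, which starts at the 3′ end of the transcript, per the labels. In 5445 genes whose outermost probes were both called, the probe nearer the 3′ end was the brighter in 75.3%. Over all of these genes, those with the brighter 5′ probe included, the median ratio of the 3′ to the 5′ probe was 3.46-fold. That share was 66.3% for probes under 1 kb apart, 73.7% for 1 to 10 kb, 83.2% for 10 to 100 kb and 82.8% for over 100 kb. Only the 3′ probe was called in 1544 genes and only the 5′ probe in 463. The 3′ probe gave 201586 and the 5′ probe 327 for C3, and 98197 and 65.7 for Dcn. Grn and Ptprz1 ran the other way, with the 5′ probe brighter. The array's probe positions are genomic, so probes in unspliced regions and in exons could not be separated, and the part of the priming in this pattern was not tested.

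**Figure D5:**
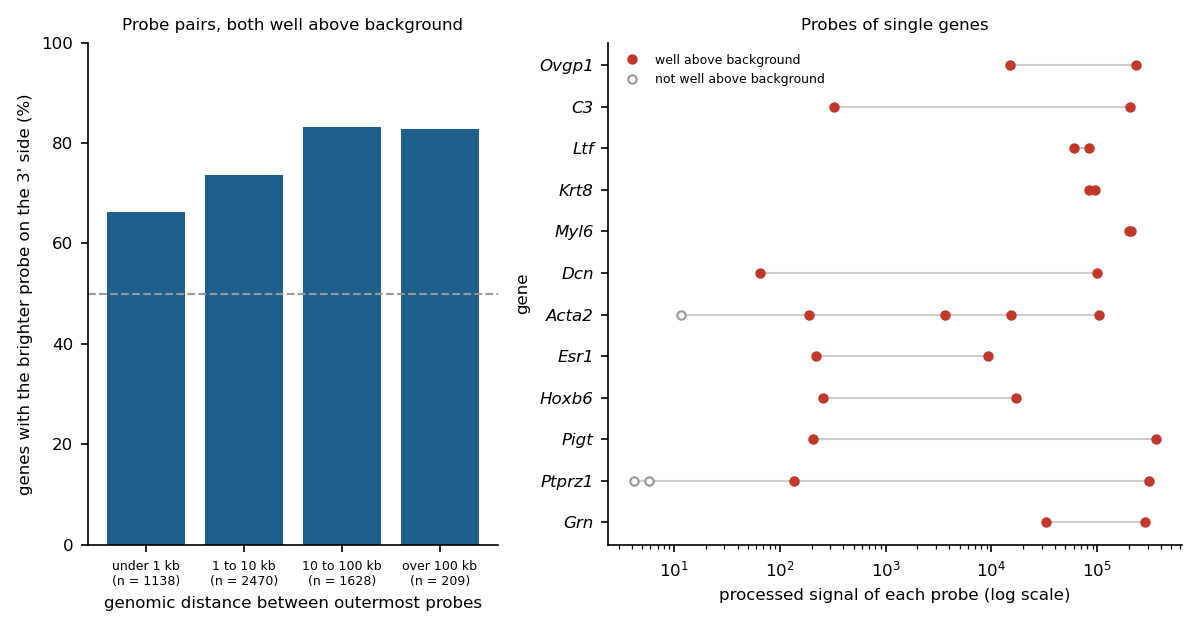
Left, share of genes whose 3′-side probe is the brighter (%, bars from 0) by genomic distance between the outermost probes, both well above background, with the dashed line at 50%; right, processed signal (log scale) of every probe of 12 genes, filled where well above background. The bars rise from 66.3% to 83.2% over the first 3 distance classes, and the probes of C3 and Dcn lie far apart while those of Krt8 and Myl6 nearly coincide.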

How the data were processed

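Total RNA of the pooled junctions was reverse transcribed from an oligo-dT primer, turned into Cy3-labelled cRNA with T7 polymerase and hybridised to an Agilent mouse array, per the labels' protocols. The deposited intensity values are processed signals of Agilent Feature Extraction, linear and background-corrected, per the file headers, which give version 10.5.1.1 and design build mm7. The submitters' processing notes give version 9.5.3. The authors' intensities were used unscaled, because only 1 array was described.

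Here, control spots and 93 spots with outlier marks were left out, and the spots of a probe were averaged as log2 values. A probe was called where more than 50% of its spots were well above background. Probes were named through the RefSeq gene table of GRCm38.p6 (23076 by accession, 6580 by symbol, 3073 by synonym), and 8432 kept the file's name. Of 32362 probes with a position, 74 (0.229%) lay on another chromosome than their gene in that table. The strand agreed for 98.7% of 25685 probes. A gene's value is its brightest probe. Percentiles are over all gene names.

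The 39 lists (807 genes, 792 on the array) and the members were chosen with earlier results of these data known. The text names the 40 brightest genes, the first 3 and the 5 brightest members of each list, every called off-tissue gene, every Hox gene and steroid receptor and the 5 widest probe spreads. Some genes that this rule names are not reported here. Further list members were named after their values were seen. Promoter sequences are RefSeq's. The summaries were tested on simulated data. Alternatives were another detection call, normexp background correction (limma 3.58.1, R 4.3.3), median signals, other probe choices and filters. Tables were made with pandas 2.3.3 and numpy 2.4.6 under Python 3.11.15, and plots with matplotlib 3.10.9. The number of arrays, 1, limits the precision.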

Additional observations from a re-analysis of the deposited data

How the results depend on the processing

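No paired analysis was possible because 1 array was described, and leaving out a replicate was not possible for the same reason. Counts of called probes (27763) and genes (18535) stayed within 1.5 times under every alternative run. The probe count reached 32718 with the software's positive-and-significant flag. The gene count went from 14978 with RefSeq symbols only to 21717 with that flag. With that flag the called genes were 14 for neutrophils, 15 for sperm and testis, 7 for male accessory glands and 2 for the Y chromosome. When every probe of a gene had to be called they were 3 for lymphatic endothelium, 1 for male accessory glands and 0 for the Y chromosome. The other list counts stayed within 1.5 times. Ranking only called genes, which leaves fewer genes below each one, gave median percentiles of 54.8 for ciliated epithelium, 70.4 for blood endothelium, 43.1 for lymphatic endothelium, 55.6 for macrophages, 28.9 for T and NK cells, 13.7 for mast cells and eosinophils, 25.9 for skeletal muscle, 9.8 for sperm and testis, 19.5 for male accessory glands, 7.2 for the Y chromosome, 39.6 for Hox genes, 47.6 for cell cycle, 59.3 for prostaglandins and 18.2 for cytokines. Taking the median probe gave 80.5 for stroma and 17.0 for male accessory glands, and it moved 239 of 325 named genes by over 1 percentile. Normexp moved 43 of 325. Normexp and median spot signals moved no list median beyond the spread of its members. The spread between probes was 1.47 on the log2 scale, against 2.84, among probes above the median signal. Leaving out probes placed on another chromosome, an alternative chosen after seeing the data, gave 18518 genes. Signals under the highest negative control spot, 21.1, are limited by background.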
